A study of Caenorhabditis elegans with 2 samples.

Results

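Of 4076 nuclear ELT-2 peak summits in late C. elegans embryos, 230 (5.64%, 95% exact binomial interval 4.95 to 6.40) lay in exons, inside coding sequence or a 3' UTR. A summit is the base that the authors' peak list marks as the highest point of a peak. A summit was kept when it fell in coding sequence or a 3' UTR of a protein-coding transcript, in no 5' UTR, and farther than 200 bp from any tRNA, snoRNA or snRNA gene. In all, 255 nuclear summits lay in coding sequence or a 3' UTR, of which 6 were also in a 5' UTR and a further 19 were near a small RNA gene. The remaining 230 divide into 152 coding summits and 78 summits in 3' UTRs, in 224 host genes, which is 1.12% of the 19973 nuclear protein-coding genes. Every gene is counted there for the 2 summits that lay in exons of more than 1 gene. With 1 gene per summit there are 222 hosts. At the edge of the distance rule, the farthest summit dropped was 176 bp from a small RNA gene, in C18H7.1, with a signal of 82.8. The nearest one kept was 212 bp away, in mdt-4, a Mediator subunit gene, with a signal of 116.

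ELT-2 is a GATA-family transcription factor of the worm intestine. It is switched on early in the endoderm lineage by other GATA factors, among them END-1, and then stays on for life, where it drives many genes of the differentiated gut. GATA factors bind short DNA words built around GATA, and for ELT-2 the extended word TGATAA is the well-known preference. Most binding of such factors is looked for in promoters. A site inside coding sequence must share its bases with a codon, and a site in a 3' UTR can lie close to the start of the next gene downstream, because worm genes are densely packed.

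The series holds 1 group, with 2 biological replicates of whole hermaphrodite worms of strain OP56, genotype unc-119(ed3) III; wgIs56, collected as late embryos 4 hours after synchronization by egg bleaching. These worms carry a stable insertion that expresses ELT-2 with a GFP-FLAG tag at its C terminus, and chromatin was precipitated with an antibody against GFP. The signal is therefore that of the tagged protein in 1 transgenic line, averaged over all cells of the embryo. There is no second condition, and the control libraries were not analysed here, so every comparison below is between classes of summits within this experiment.

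The exon sites can be read directly in the genome sequence. The 4 strongest coding and 4 strongest 3' UTR summits with TGATAA within 50 bp, leaving out 1 chromosome whose sequence is not printed, are shown as 30-base windows of the reference genome WBcel235. Each runs 5' to 3' on the strand that carries the word, with TGATAA in capitals. They show which bases flank the word, and where it sits in the gene. The coding set comes first.

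F39G3.2 (chrV:4737899-4737928, minus strand, gene on the plus strand): cttcctacatgcTGATAAgaaatacaaggc
F56A11.4 (chrIV:552132-552161, minus strand, gene on the plus strand): catttaatcaccTGATAAcagtcaactttc
kcnl-4 (chrV:14542351-14542380, minus strand, gene on the plus strand): tcaacttccgacTGATAAgagcaataagtg
R07A4.4 (chrX:10754721-10754750, minus strand, gene on the minus strand): acaacaacagttTGATAAcacattgcgcaa

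The 3' UTR set follows.

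R04B5.6 (chrV:10087321-10087350, minus strand, gene on the plus strand): tgtttgagaaatTGATAAgagggtgaactg
R57.2 (chrX:299252-299281, plus strand, gene on the plus strand): cacttataatgtTGATAAtaataaaatatt
R07B7.10 (chrV:12086407-12086436, minus strand, gene on the plus strand): ggaccacctgtaTGATAAgatagtggtaaa
end-1 (chrV:13987062-13987091, plus strand, gene on the plus strand): tgacagttctacTGATAAgctctttttgtg

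Of these 8 windows, 5 continue with G after the word, giving TGATAAG, while 3 do not. In F39G3.2, kcnl-4 and R07A4.4 the word lies wholly in coding sequence. In F56A11.4 the summit is the last base of an exon and the nearest word is in the intron that follows. In end-1 the word crosses the edge of the annotated transcript, and in the other 3' UTR members it lies inside the 3' UTR.

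Summits in exons carried the GATA word at a high rate. TGATAA, on either strand, lay wholly within 50 bp of 138 of 230 exon summits (60.0%, interval 53.4 to 66.4), against 30 of 230 equally wide windows placed 500 bp to the left (13.0%, interval 8.98 to 18.1). The word was present at the summit and not in the flank for 122 members, and in the flank and not at the summit for 14 (two-sided exact sign test, p = 1.1e-22, adjusted p = 7.7e-22 over the 7 tests of this set). The control word AATAGT, the same letters in another order, was at 10 of 230 exon summits (4.35%) and in 18 of 230 flanks (7.83%). Over all 4076 nuclear summits, 43.7% had TGATAA within 50 bp. These tests take summits as units, and say nothing of variation between batches of worms.

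**Figure D1:**
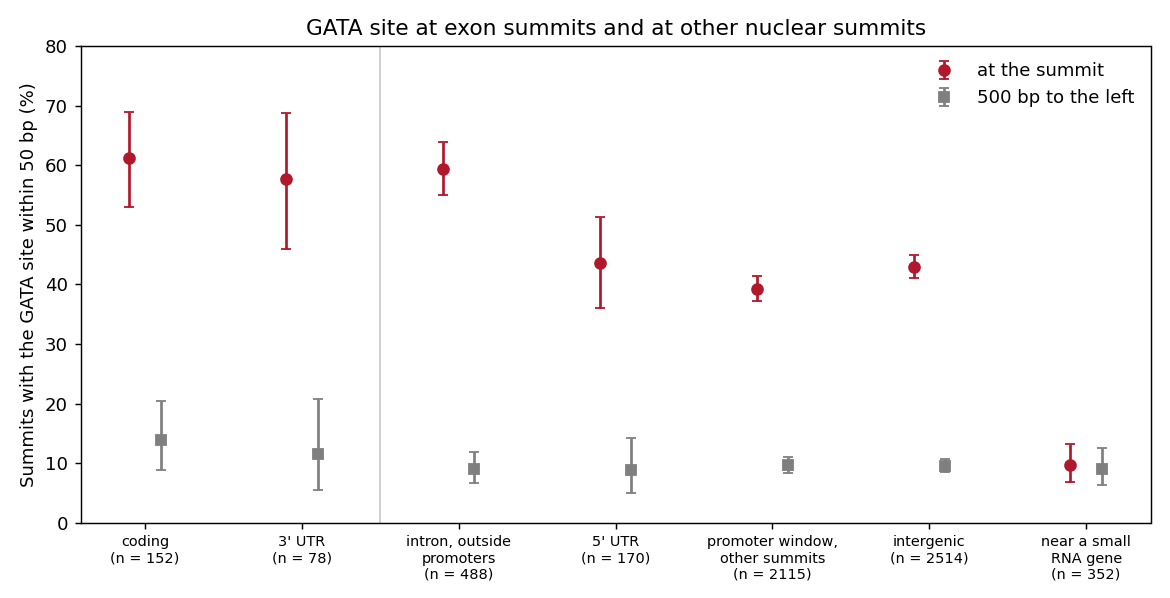
Share of summits with the GATA site (TGATAA) within 50 bp, in percent, by where the summit lies, at the summit (circles) and in a window 500 bp to the left (squares); bars are 95% exact binomial intervals, and the promoter class overlaps the 5' UTR and intergenic classes. Coding summits reached 61.2% and 3' UTR summits 57.7%, close to the 59.4% of intronic summits outside promoters and above the 43.0% of intergenic summits. The coding and 3' UTR classes include summits inside promoter windows.

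Both kinds of exon summit had it. The word was at 93 of 152 coding summits (61.2%, interval 53.0 to 69.0) and at 45 of 78 summits in 3' UTRs (57.7%, interval 46.0 to 68.8). The difference did not pass the test (odds ratio 1.16 with 95% limits 0.637 and 2.09, Fisher's exact adjusted p = 0.782), and its interval includes differences in either direction. In the list of replicate 1 alone, without replicate 2, the odds ratio was 1.75 (95% limits 0.963 and 3.20, Fisher's exact adjusted p = 0.0881). Within coding members, the share was 47.4% of 38 summits in the first of several exons, 67.4% of 89 in internal exons and 59.1% of 22 in the last. The longer word TGATAAG was at 34.3% of exon summits, against 25.7% of the other nuclear summits. It was at 28.1% of those others away from small RNA genes, and at 38.7% of intronic summits outside promoters.

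The word was concentrated at the summit itself. In coding members, 42.1% had it in the 50 bp to the left of the summit and 39.5% in the 50 bp to the right, against 9.21% and 7.89% in the outermost bins. In 3' UTR members the same inner bins held it at 41.0% and 28.2% of summits, against 5.13% and 3.85% in the outermost bins. Where a member had the word, the nearest copy was a median of 17 bp from the summit, and within 25 bp for 98 of 138. More than 1 copy was present at 66 of the 138.

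**Figure D2:**
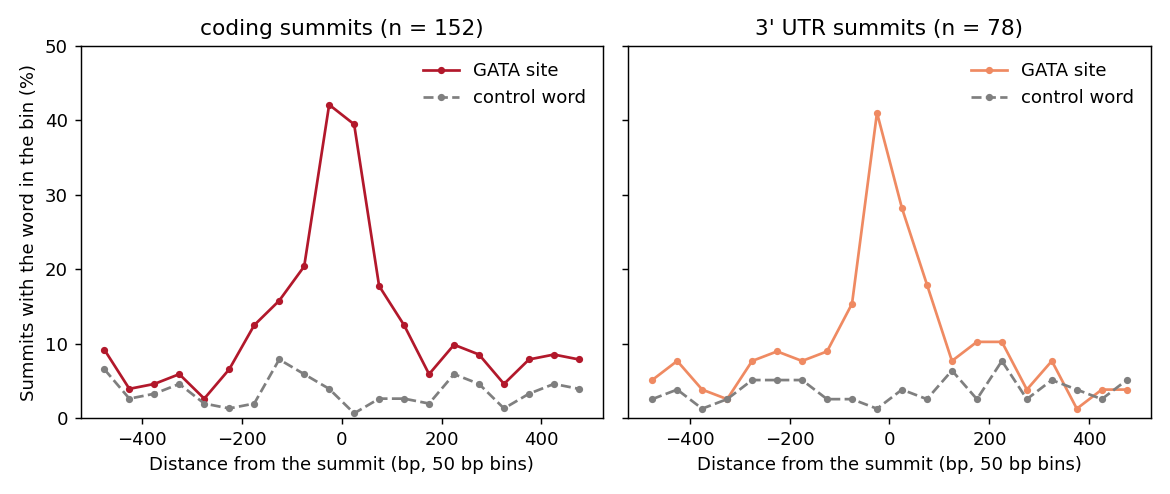
Percent of coding (left) and 3' UTR (right) summits that hold the GATA site TGATAA (solid) or the control word AATAGT (dashed) in each 50 bp bin, by distance from the summit. The site peaks in the bins beside the summit, at 42.1% for coding and 41.0% for 3' UTR summits, while the control word reached at most 7.89% of coding summits in any bin.

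The nearest copy of the word was mostly in the exon itself. Among the 93 coding members with the word, the nearest copy was wholly in coding sequence for 81, in an intron for 7, in a 5' UTR for 3, in a 3' UTR for 1 and intergenic for 1. Among the 45 members in 3' UTRs, it was wholly in 3' UTR sequence for 39. The nearest copy was on the strand of the host gene for 53 of 138 (38.4%, interval 30.3 to 47.1), and for 38 of 93 coding members (40.9%, interval 30.8 to 51.5). Genome-wide, coding copies were divided nearly evenly between the strands. On the gene's strand lay 35.9% from the last base of a codon and 11.6% from the middle base. On the other strand lay 13.0%, 23.2% and 16.2% in its registers. The strand share was not tested. The peaks themselves are wider than most exons: 32 of 230 peaks (13.9%) were wholly exonic, and the median exonic share of a peak was 70.7%. The width in the list was 456 bp at the lower quartile, median and upper quartile of the members. The exonic shares thus describe a largely uniform peak width, and not a measured extent of binding.

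Compared with all other nuclear summits, exon summits held the word more often. The share was 60.0% in exons and 42.8% (1645 of 3846) elsewhere, an odds ratio of 2.01 (95% limits 1.52 and 2.66, Fisher's exact adjusted p = 1.67e-06). That reference class is mixed. Of 352 summits near small RNA genes 9.66% had the word, and of the 2115 others in promoter windows, reaching from 1000 bp upstream to 200 bp downstream of a 5' end and including 5' UTR summits there, 39.2% had it. Against the 1379 other summits away from small RNA genes and outside promoter windows, of which 781 had the word, the odds ratio was 1.15 (interval 0.857 to 1.54) and the difference did not pass the test (exact adjusted p = 0.491). Against the 488 intronic summits outside promoter windows, of which 290 had it (59.4%), the odds ratio was 1.02 (interval 0.735 to 1.43, exact adjusted p = 0.935). Both of these last comparisons keep all 230 members, 103 of them inside promoter windows, so the sets are unlike in this respect. Of the 127 members outside, 84 had the word (66.1%), and these alone were not tested against either class.

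Exon members in promoter windows had the word at a lower share, though the test over all members did not pass its threshold. It was at 54 of 103 members inside any promoter window (52.4%) and at 84 of 127 outside (66.1%), an odds ratio of 0.566 (95% limits 0.320 and 0.996, Fisher's exact adjusted p = 0.0593). Among coding members alone the shares were 49.2% of 61 inside and 69.2% of 91 outside (odds ratio 0.433, interval 0.208 to 0.888, exact adjusted p = 0.0242, a comparison added after the values were seen). In 3' UTR members they were 24 of 42 inside and 21 of 36 outside. With promoter windows reaching 500 bp upstream and 100 bp downstream, the test over all members passed (odds ratio 0.496, exact adjusted p = 0.0218), and among the stronger peaks, those above the median signal, the odds ratio was 0.941 (exact adjusted p = 1).

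Coding and 3' UTR members reached promoter windows by different routes. Of 152 coding members, 48 lay in the promoter window of their own gene, 42 of them within 200 bp downstream of its 5' end, and 13 more lay only in the window of another gene. None of the 78 summits in 3' UTRs was in its own gene's window, while 42 (53.8%, interval 42.2 to 65.2) were in that of a neighbour. In 41 of these 42 the neighbour was on the same strand, as the layout of a 3' end lying upstream of another 5' end favours. The median distance to that 5' end was 296.5 bp and the shortest 23 bp. The share of all 3' UTR sequence lying in a neighbour's window was not taken, so the 53.8% has no background beside it. That none was in its own gene's window follows largely from where a 3' UTR lies in a gene. The nearest annotated 5' end was over 1000 bp away for 82 members (35.7%), of which 53 had TGATAA (64.6%).

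Coding sequence held few ELT-2 summits for its size. It made up 24.2% of the nuclear genome and held 3.73% of its summits, or 6.26 summits per Mb (exact Poisson interval 5.30 to 7.34). Annotated 3' UTRs had 23.6 per Mb (18.6 to 29.4), within the counting error of the 24.6 of introns (22.9 to 26.3). Intergenic sequence had 67.3 and 5' UTRs 96.4 per Mb. The rule that chose the members also set the counts in the exon classes, so these densities are a description and were not tested.

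The GATA word itself was not scarce in exons. Coding sequence held 1008 copies of TGATAA per Mb and 3' UTRs 1388, against 985 in introns and 1096 in intergenic sequence. A summit lay within 50 bp of 156 of 24478 coding copies (0.637%, interval 0.541 to 0.745) and of 61 of 4590 copies in 3' UTRs (1.33%, interval 1.02 to 1.70). The share was 2.20% in introns, 4.07% in intergenic sequence and 5.71% in 5' UTRs, and 2.62% over all 105444 nuclear copies. Most copies in any region thus had no summit near them in this list.

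**Figure D3:**
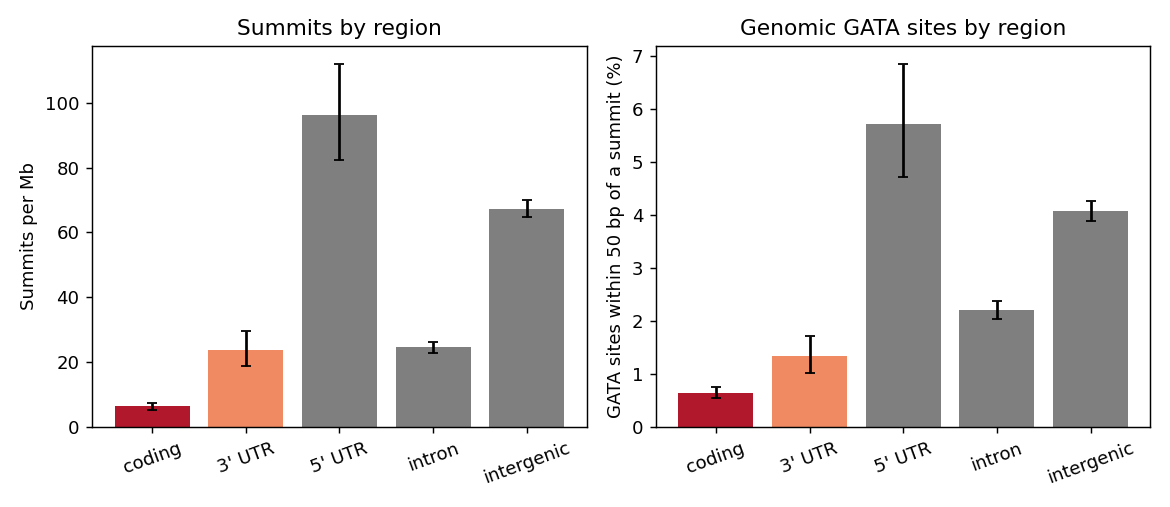
Summits per Mb of sequence (left; bars to exact Poisson 95% limits) and percent of genomic TGATAA copies with a summit within 50 bp (right; exact binomial 95% limits), by region, for coding and 3' UTR sequence and for 5' UTR, intron and intergenic sequence. Coding sequence is lowest in both, at 6.26 summits per Mb and 0.637% of copies.

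Codons restrict how the word can sit. Read on the gene's strand from the start of a codon, TGATAA begins with a stop codon, and no copy in that register was counted in coding sequence. The commonest register, on the gene's strand from the last base of a codon, held 35.9% of coding copies genome-wide, and 18 of 82 nearest copies at the members (22%, interval 13.6 to 32.5). The register on the other strand whose reverse complement starts at the middle base of a codon held 23.2% of coding copies and 22 of 82 at the members (26.8%, interval 17.6 to 37.8). The share of copies near a summit was between 0.479% and 0.845% over the 5 registers, with overlapping intervals.

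The signal of exon summits lay toward the low end of the list. Signal is the authors' enrichment value for a peak, on a scale whose definition is not given in the sources used here. It ranged from 67.6 to 426 over the 230 members, with a median of 98.4 (101 for coding, 96.7 for 3' UTR), against a median of 108 over the 3846 other nuclear peaks and 110 over the intronic peaks outside promoters. Peaks with a summit in a 5' UTR had a median of 100.5, near that of the members. The strongest member ranked 52 in the list. Members exceeded the median signal of all nuclear peaks in 93 of 230 cases (40.4%), against 1945 of 3846 others (50.6%), an odds ratio of 0.664 (95% limits 0.50 and 0.877, Fisher's exact adjusted p = 0.00801). Against other summits away from small RNA genes and outside promoter windows the odds ratio was 0.718 (interval 0.535 to 0.963). This is near the 0.664 above, though the call was lost (Fisher's exact p = 0.0226, adjusted p = 0.0790). Peaks below the authors' threshold do not enter these shares.

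The share with the word was highest among the strongest exon peaks. From the weakest to the strongest of 5 equal classes of nuclear signal, the share of members with TGATAA was 58.3%, 54.9%, 45.5%, 69.0% and 78.8%, over 33 to 60 members each. The other nuclear summits gave 32%, 36.3%, 42.3%, 47.6% and 55.2% in the same classes. The members' share was the higher one in each class, by least in the middle one, where the intervals overlap, and these shares were not tested. The others here are the mixed class that includes summits near small RNA genes and in promoter windows. Among peaks above the median signal, 61 of 93 members had the word, and 176 of 252 intronic summits outside promoter windows (odds ratio 0.824, interval 0.484 to 1.42). Members with the word had a median signal of 101.6 and those without it 94.0.

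Every exon member overlapped a peak of each replicate, as did 3837 of the 3846 other nuclear peaks. Agreement between replicates entered the thresholding of the list, so this overlap is no separate evidence for the members. A summit of both replicates lay within 100 bp for 215 of 230 members (93.5%), a share not taken for the other peaks. In replicate 1 the members' signal had a median of 54.8 (range 23.6 to 241), and in replicate 2 a median of 48.0 (range 15.7 to 192). The replicate values of the members ranked alike to a moderate degree (Spearman's rho 0.675 across members, against 0.751 across the other nuclear peaks, as a description), and the SD of the log2 ratio between replicates was 0.48, against 0.47. Of the members, 159 (69.1%) overlapped one of the 4098 strongest peaks in each replicate, against 2949 of 3846 others (76.7%), an odds ratio of 0.681 (95% limits 0.506 and 0.924, Fisher's exact adjusted p = 0.0186). Without summits near small RNA genes in the reference, the difference missed the threshold (odds ratio 0.727, exact adjusted p = 0.0586). The share was 68.8% in members with TGATAA and 69.6% in members without it.

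**Figure D4:**
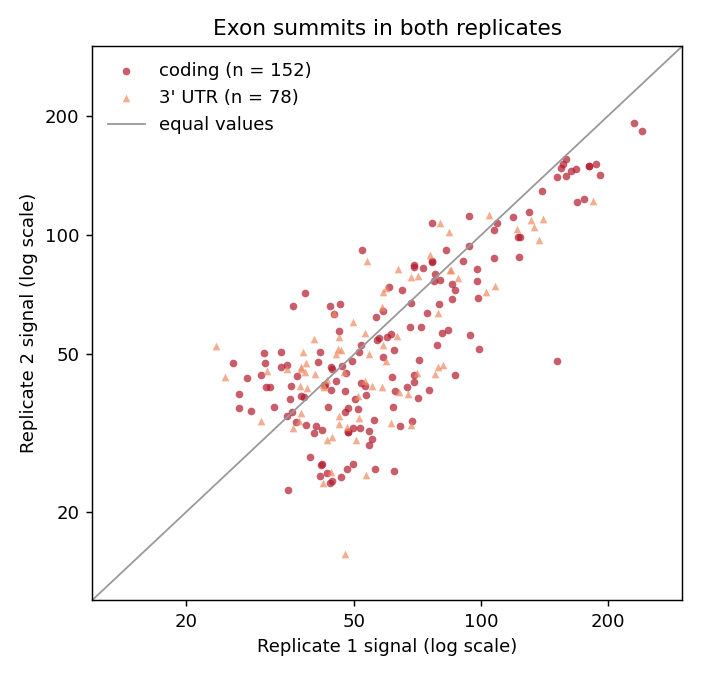
Signal of the 230 exon summits in replicate 1 (horizontal) and replicate 2 (vertical), both on log axes, for 152 coding (circles) and 78 3' UTR (triangles) summits; the line marks equal values. Points scatter along the line, and the lowest replicate 2 value, 15.7, belongs to the 3' UTR summit of hbl-1.

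Some members share a peak. The peaks of 19 members overlap another thresholded peak, and 8 genes host 2 members each. The 2 summits of C35E7.9 and the 2 of T19B10.5 come from overlapping peaks, so the members of such a pair share sequence, and a replicate value matched by overlap can be that of the stronger neighbour. C35E7.9 had pooled signals of 325 and 106, both matched to 180 in replicate 1 and 150 in replicate 2. T19B10.5 had pooled signals of 290 and 102, both matched to 151 in replicate 1. R12E2.8 instead had summits in exons 5 and 2, at 316 and 301 in the pooled list. None of these 3 genes had TGATAA within 50 bp of its summits. In cyp-33D1, a cytochrome P450 gene, both summits had the word, with signals of 274 in exon 5 and 133 in exon 2. In pqm-1, which encodes a zinc-finger regulator of stress and growth genes, neither had it, at 178 and 89.9.

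The strongest coding members were in F39G3.2 and F56A11.4. F39G3.2 had a signal of 426 in the pooled list, 241 in replicate 1 and 183 in replicate 2, at a summit in exon 1 of 7, 103 bp downstream of the gene's 5' end. F56A11.4 had 422, with 231 and 192 in the replicates, and its summit lay 3823 bp from its own 5' end, the nearest one annotated. The annotation gives neither gene a name beyond its sequence identifier.

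The patched-related gene ptr-12 had 333, with 192 in replicate 1 and 142 in replicate 2, in its last exon. The calcium-activated potassium channel gene kcnl-4 had 332, with 187 and 151, in exon 7 of 9. The predicted chemoreceptor gene srw-14 had 307, with 163 and 145. R07A4.4 had 315, with 159 and 155, and its summit in exon 5 was also 166 bp upstream of the 5' end of R07A4.3. F57B1.6 had 300.4, with 159 and 141, and 3 copies of the word within 50 bp. Of the 10 strongest coding members 7 had the word, and 2 lay in a promoter window.

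**Figure D5:**
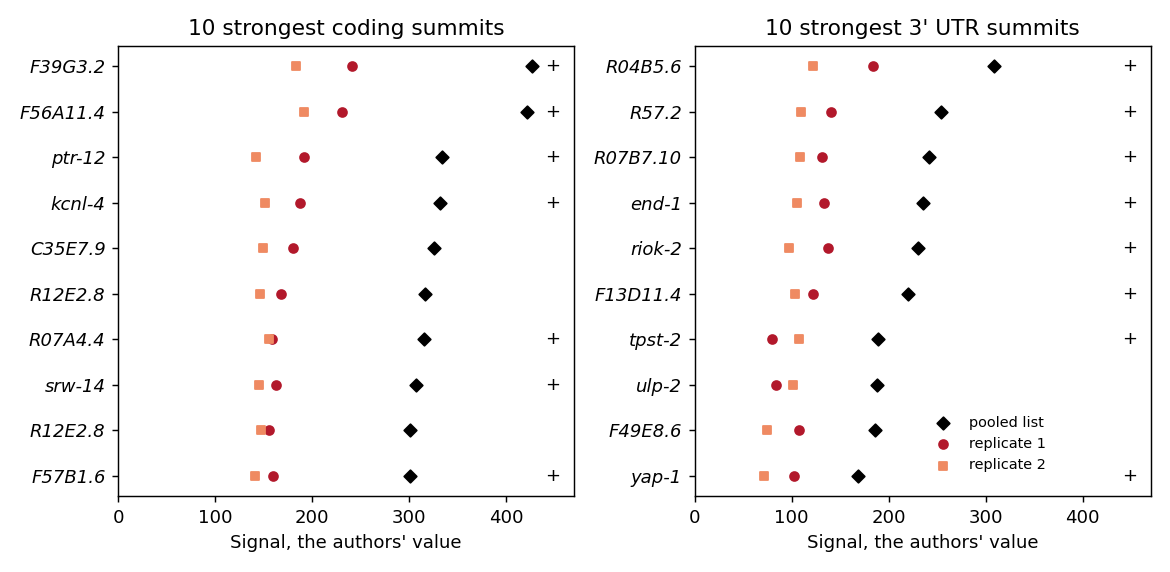
Signal, as the authors' value, of the 10 strongest coding (left) and 3' UTR (right) exon summits by host gene, in the pooled thresholded list (diamonds), replicate 1 (circles) and replicate 2 (squares); a plus sign marks TGATAA within 50 bp. Pooled values lie above both replicates in all 20, and 7 coding and 8 3' UTR summits carry the plus sign.

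The strongest 3' UTR members mostly preceded another gene. R04B5.6 had 309 in the pooled list, 184 in replicate 1 and 122 in replicate 2, 182 bp upstream of R04B5.5. R07B7.10 had 242, with 132 and 109, 846 bp upstream of gana-1, an alpha-galactosidase gene. The summit in riok-2, a RIO kinase gene, had 231, with 137 and 97.2, 93 bp upstream of hprt-1, which encodes a purine salvage enzyme. For riok-2 the nearest word was intergenic.

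Further such neighbours were cyn-6, a cyclophilin gene, with the tpst-2 summit (signal 189) 552 bp upstream of it, and plpp-1.3, a phospholipid phosphatase gene, with the yap-1 summit (168) 897 bp upstream of it. The summits in ulp-2, a SUMO protease gene (188, 159 bp upstream of the proteasome gene pbs-3) and in F49E8.6 (186, 298 bp upstream of dif-1, a mitochondrial carrier gene) had no TGATAA within 50 bp. R57.2 (254, with 140 and 110), end-1 and F13D11.4 (220, with 122 and 104) were the 3 of the 10 strongest that lay in no promoter window. In all, 8 of these 10 had the word and 7 were in the window of another gene.

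The member in end-1 belongs to the endoderm GATA cascade. END-1 is a GATA factor that specifies endoderm ahead of elt-2. Its 3' UTR summit had a signal of 236 in the pooled list, 133 in replicate 1 and 105 in replicate 2, was 1914 bp from the gene's 5' end and 32 bp from its 3' end, and had 1 TGATAA, 34.5 bp from the summit. Of the 7 genes of that list, end-1 was the 1 host, and the exons of the others held no member.

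Host genes were spread thinly over the gene lists examined. Of 20 lists, 9 had a host, and 24 of 224 hosts (10.7%) were in any list, against 3473 of 19973 nuclear protein-coding genes (17.4%). No host was a cytosolic ribosomal protein, histone, chaperone, vacuolar ATPase, lipid metabolism, nuclear hormone receptor, collagen, major sperm protein, pharynx, neuron or germline gene of these lists. The lists without a host held from 21 genes (vacuolar ATPase) to 269 (nuclear hormone receptors). Beside the 1.12% of all genes, most of them are too short for the absence of a host to stand out. The detoxification list had most hosts for its size after end-1's and the intestinal lumen list, at 7 of 185 genes (3.78%, beside 1.12% of all genes), namely cyp-33D1, cyp-34A1, cyp-35D1, cyp-33C1, ugt-6, ugt-46 and ugt-47. Their 8 summits had signals from 69.3 to 274, and 5 had TGATAA. The body wall muscle list came next at 1 of 27 genes (3.70%), then translation factors and tRNA synthetases at 2 of 71 (2.82%). These shares were not tested. Cytochrome P450s and UDP-glycosyltransferases modify foreign and endogenous compounds, many of them in the gut.

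The lists of intestinal lumen and of hydrolase genes had 1 host each, of 17 and 76 genes. The summit in ajm-1, an apical junction gene, had a signal of 157, 86.6 in replicate 1 and 72.6 in replicate 2. It lay 230 bp upstream of a 5' end of ajm-1 itself. The summit in exon 1 of asp-3, which encodes an aspartyl protease, had 91.5, with 49.4 and 48.1. Both had the word, in an intron for ajm-1 and in the 5' UTR for asp-3. Neither of these words was in coding sequence.

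Hosts in the other lists came from families known for sensory, muscle, translation and other roles. The chemoreceptor list had 9 hosts of 1364 genes (0.660%), with signals from 81.8 to 307 and TGATAA at 7 of 9. It was matched by symbol, and srf-3, one of the 9, is known as a nucleotide-sugar transporter gene. The second strongest was srt-50, at 178. The tRNA synthetase genes fars-2 and pars-2 had 98.4 and 90.4, the troponin T gene mup-2 had 86.4, the F-box gene fbxb-42 had 84.6, and the C-type lectin gene clec-170 had 78.0. The word was at all of these but clec-170.

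Of the 92 exon members without TGATAA, 32 (34.8%, interval 25.1 to 45.4) had AGATAA within 50 bp, or one of the related words TGATAG and, differing from it at the start, AGATAG, against 11 of the same 92 in the flank (12%). Among the 2201 other nuclear summits without TGATAA, 22.4% had one at the summit and 12.6% in the flank. No GATA at all was found within 50 bp of 40 of the 92 (43.5%), against 54.8% of the 2201. Those 2201 include summits near small RNA genes and in promoter windows, and no narrower class was searched. This search was added after the values were seen and was not tested.

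Base composition and length differed among the members. The 101 bp around coding summits had a median GC content of 40.6%, those around 3' UTR summits 34.2%, and those around the other nuclear summits 40.6%. Coding summits lay in coding segments with a median length of 176.5 bp, against 144 bp over all 129164 annotated segments. The longest transcript of a host gene had a median of 1562 bp, against 1151 bp over all protein-coding genes. A longer exon offers more bases for a summit to fall in, and the part of length in these values was not tested.

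The members were on every nuclear chromosome. Chromosome V held 49 and X 47, and their share of each chromosome's nuclear summits ran between 4.20% on chromosome II and 7.13% on chromosome V. On chromosome X it was 5.64%, as over the whole list.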

How the data were processed

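ChIP-seq of ELT-2-eGFP was measured in 2 biological replicates, per the labels. The deposited ce11 files are narrowPeak lists: 4098 thresholded peaks (4076 nuclear, 22 mitochondrial and not used), 30000 pooled peaks, and 25770 and 25986 peaks of replicates 1 and 2. The authors' signal value and −log10 q value stand in each deposited list, and the summit offset gives the summit. For the peak caller and aligner, nothing is stated in the labels or headers, and the depth is unknown. The ce10 lists were not used. The thresholded list is of pooled replicates, and replicate values were matched by an overlap of at least 1 bp, taking the authors' signal.

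Summits were annotated with Ensembl release 115 (WBcel235, the sequence of ce11), and DNA words searched on both strands. Python 3.11.15, numpy 2.4.6, scipy 1.17.1, pandas 2.3.3 and matplotlib 3.10.9 were used. A sign test and 6 Fisher's exact tests, two-sided, were adjusted together by Benjamini-Hochberg (threshold 0.05), after a check on simulated sequence. Intervals are 95%, exact, and cover counting error only. The members and gene lists were chosen with earlier results of these data known. Genes named are the hosts of the 10 strongest members of each kind, of endoderm GATA genes, of the 2 strongest members of each other list, and of up to 5 genes with several members. Other genes are named where a count singled them out.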

Additional observations from a re-analysis of the deposited data

Results flagged for a closer look

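Pooled peaks below the authors' threshold, which no comparison above uses, also held the GATA word at exon summits. Of 3522 such summits chosen by the same rule, 14.7% had TGATAA within 50 bp (interval 13.6 to 16.0), against 7.81% in windows 500 bp to the left. The other 22377 nuclear summits below the threshold gave 12.5% at the summit and 8.62% in the flank. The exon summits here had signals from 16.1 to 67.4, all under the lowest exon member.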

How the results depend on the processing

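Of 81 tested values recomputed under 19 settings, 60 kept their direction and side of the threshold, and the number of exon summits stayed within 1.5 times in 6 of 7. The excess of TGATAA at exon summits over flanks, 47 percentage points, held under every setting but the control word AATAGT (-3.48 points) and was otherwise between 30.4 (TGATAAG) and 51.3 points (100 bp window), with 33.5 for a 25 bp window and 42.6 to 43.7 in the list of either replicate alone. AATAGT also turned the odds ratios against other nuclear summits (0.593), intronic summits (0.448), of coding to 3' UTR members (0.761) and inside to outside promoters (1.24). None of these passed its test. The 2 comparisons that never passed changed side, namely against intronic summits, 0.986 with a 25 bp window, 0.828 with TGATAAG and 0.824 in the stronger peaks, and coding against 3' UTR, 0.902 with TGATAAG and 0.935 in the stronger peaks. Inside against outside promoters passed with a 100 bp window (0.461), with 1 transcript per gene (0.519), with the smaller promoter window (0.496) and in coding members (0.433). Against other summits away from small RNA genes and outside promoters, calls were lost for the GATA word (1.15). They were also lost there for signal above the median (0.718, interval 0.535 to 0.963) and for both replicates' strongest peaks (0.750). The last was also lost without the distance rule (0.736) and against summits away from small RNA genes (0.727). The stronger peaks (93 members) were chosen on signal, so the signal comparison (0.893) and the replicate comparison (0.571, with 92 of 93 members and 1933 of 1945 others shared) carry no information there. The cause of the other changes was not tested. From a single replicate's list, the odds ratio against other nuclear summits was 1.65 and 1.83. Replicates could not be paired between groups, since there is 1 group.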
